A study of Homo sapiens with 12 samples.

Results

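The 10 rows described here were OSBPL10, FEN1, EPS8L3, ESYT3, RWDD2A, NFE2L3, EYS, LINC01709, NANOGP6 and RNU6-105P, out of 61255 rows of a table of RNA-seq counts per gene. They had been selected on their measured arsenite log2 fold changes, which differed among 3 cell lines while the replicates of each line lay close together. These fold changes, and the mock and arsenite levels that make them up, are therefore a description and carry no test. The cells were Huh-7.5, an established human hepatocellular carcinoma line, engineered to express the labelling enzyme APEX2 as APEX-NES, APEX-NLS or APEX-G3BP1. Each line was harvested either after a mock treatment or after exposure to sodium arsenite (0.5 mM, 45 minutes), with 2 numbered replicates in each of the 6 groups. All groups, mock groups included, carry an APEX2 construct, and the labels give neither a parental line without one nor the number of clones behind a line.

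Arsenite reacts with thiols, provokes oxidative and proteotoxic stress, and halts translation initiation through phosphorylation of eIF2α. Untranslated messenger RNA then gathers in stress granules, for which G3BP1 is a core protein, while transcription factors such as NRF2, HSF1 and ATF4 switch on stress genes. A fold change sets the level after such a pulse against the level before it and can differ between lines through either one. The rows cover several kinds of gene. OSBPL10 and ESYT3 encode lipid transfer proteins, FEN1 a DNA flap endonuclease, NFE2L3 a transcription factor related to NRF2, EPS8L3 a protein of the family that links receptor signalling to actin, EYS an extracellular matrix protein of photoreceptors, and RWDD2A an RWD-domain protein. The other 3 rows are a long noncoding RNA (LINC01709), a processed pseudogene of NANOG (NANOGP6) and a pseudogene of the U6 spliceosomal RNA (RNU6-105P).

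Library totals lay between 1090308 and 1461067 counts, so 3 counts, the upper limit that a count of 0 allows, corresponded to 2.08 to 2.88 CPM, covering counting error only. CPM is the read count of a row scaled to a common library total, here with TMM factors. All 10 rows were among the 13108 that passed the filter on low counts. Of these rows, 8 had at least 10 counts in all 12 libraries, whereas NANOGP6 reached 10 counts in 8 libraries and RNU6-105P in 11, and both passed through the groups in which they were high. Hepatocyte markers fixed for the cell type had 198 to 430 counts per library summed over 12 genes. The sum was higher in the G3BP1 arsenite libraries (412 to 430) than in the NES mock libraries (198 to 263), and its part in the results was not tested. It was uneven: APOB had 77 to 145 counts, AFP 25 to 95 and ALB 11 to 29. APOH had 0 and TTR at most 1, and 3 of the 12 stayed under 10 counts in every library. Leukocyte markers and fibroblast markers had at most 4 and 2 counts per gene in any library, and endothelial markers at most 14. The G3BP1 row itself had 1 to 23 counts and gave no check of the construct. A row name is not proof of the transcript counted. TALAM1 had 44233 to 81932 counts per library and MALAT1, on the opposite strand, had 16 to 37. The library kit was stranded, but whether counting used the strand is not given in the sources used here. Gene names, descriptions, responses and promoters below follow the row names. A row may instead hold reads of the opposite strand, and which strand's reads each row holds was not tested. As these are bulk samples, fewer cells with an RNA and less of it per cell cannot be told apart. The labels do not say that replicates came from separate cultures, so p-values measure the spread between these libraries, which may be technical.

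Sequences are shown for members that stood higher after arsenite in every line and whose promoter held a stress-related motif outside annotated untranslated sequence, and for the U6 copy. The RefSeq promoter table (GRCh38.p14) held 7 of the 10 members, with 8 promoters since EYS has a pair, and 250 bases before each start were searched on both strands. The AP-1 motif TGANTCA was present in 6.57% of all 35116 promoters and in those of OSBPL10 and ESYT3. Of the variants of the metal response element core, TGCACNC was present in 9.87% of promoters and in those of ESYT3, with 2 overlapping matches, and RWDD2A, and TGCGCNC in 16.8% and in that of NFE2L3. None of the 8 member promoters held the antioxidant response element TGACNNNGC (10.9% of all promoters), the heat shock element GAANNTTC (5.78%) or the cAMP response element TGACGTCA (1.65%) within these windows. Capitals mark the matched letters.
OSBPL10 promoter (chr3:31981303-31981512, minus strand, GRCh38.p14): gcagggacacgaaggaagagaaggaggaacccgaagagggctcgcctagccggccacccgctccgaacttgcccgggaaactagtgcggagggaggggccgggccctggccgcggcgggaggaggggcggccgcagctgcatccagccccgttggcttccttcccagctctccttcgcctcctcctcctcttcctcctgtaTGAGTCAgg
ESYT3 promoter (chr3:138434366-138434612, plus strand, GRCh38.p14): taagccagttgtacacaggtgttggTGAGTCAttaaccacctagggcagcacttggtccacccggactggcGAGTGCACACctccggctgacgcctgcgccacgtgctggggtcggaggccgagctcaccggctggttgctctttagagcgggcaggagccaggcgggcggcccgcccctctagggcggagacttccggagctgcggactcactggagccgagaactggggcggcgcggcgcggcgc
NFE2L3 promoter (chr7:26151948-26152197, plus strand, GRCh38.p14): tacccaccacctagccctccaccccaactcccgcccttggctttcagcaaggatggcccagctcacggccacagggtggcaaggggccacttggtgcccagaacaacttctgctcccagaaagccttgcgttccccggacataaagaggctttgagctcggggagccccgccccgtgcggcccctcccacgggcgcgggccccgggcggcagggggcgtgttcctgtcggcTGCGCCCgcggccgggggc
RNU6-105P transcript (chr2:71379755-71379858, minus strand, GRCh38, GENCODE 29): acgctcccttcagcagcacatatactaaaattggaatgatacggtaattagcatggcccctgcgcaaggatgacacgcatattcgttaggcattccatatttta
The 104 bases of RNU6-105P were identical to the U6 gene RNU6-1 at 89.4% of 104 aligned positions, and NANOGP6 to NANOG at 76.1% of 919 aligned columns. Counts of both rows are uncertain wherever reads could have been shared with such copies.

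The spread among lines lay mainly in the mock libraries. The range of the 3 line means on the log2 CPM scale was wider in mock than in arsenite libraries for 8 of the 10 rows, with a median of 1.16 in mock and 0.33 in arsenite. Over all 13108 tested rows the mock range was the wider one in 52.8%, with medians of 0.51 and 0.48. The 2 rows with the wider range after arsenite were NFE2L3 and RNU6-105P. These ranges are parts of the contrast that chose the rows and are given without a test. With scaling by total counts the mock range of NFE2L3 also became the wider one, by 0.02, and for NANOGP6 the order turned when NES arsenite replicate 1 or NLS mock replicate 2 was left out (mock minus arsenite range -0.27 in each case, against 0.18).

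**Figure D1:**
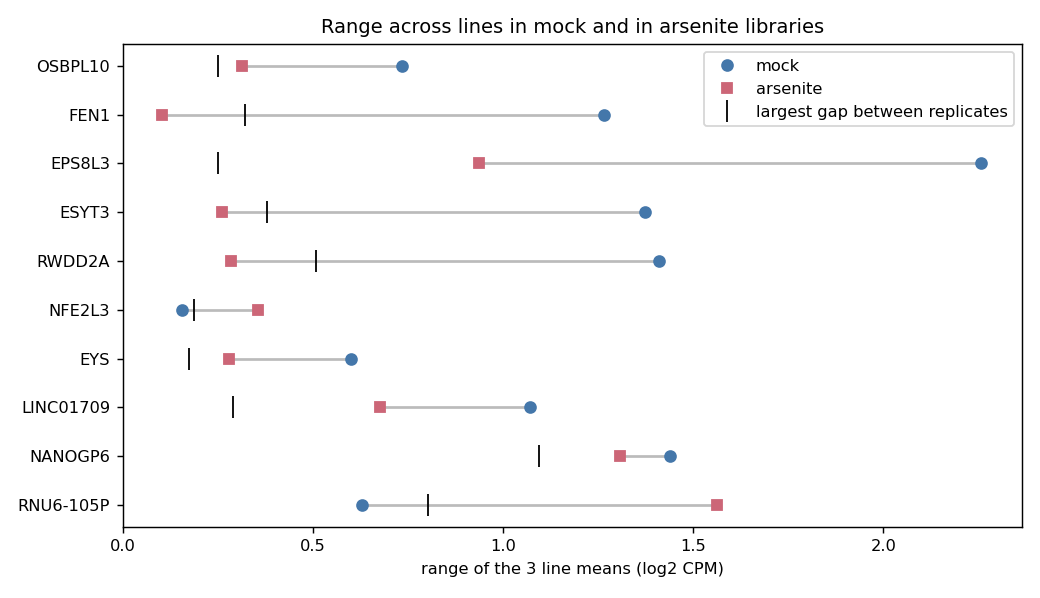
Range of the 3 line means (log2 CPM, x axis) for each of the 10 rows in mock (blue circles) and arsenite libraries (red squares); the black tick is the largest gap between the 2 replicates of any group. Mock circles lie to the right for 8 rows, with the widest mock range for EPS8L3 (2.26).

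Each row had at least 1 pair of lines whose libraries did not overlap, in mock (78.3% of all tested rows) and also in arsenite libraries (77.7% of all tested rows). Counting every pair of lines, the replicates were apart in 27 of 30 comparisons in mock and in 19 of 30 after arsenite, against 52.5% and 51.1% of the 39324 pairs over all tested rows. All 10 rows were called by the joint test of different arsenite effects among lines (edgeR, adjusted p under 0.05), which calls 24 rows or 0.183% of those tested. They had been chosen for that, so nothing is read from it. The joint test rests on the tool, since DESeq2 called 0 rows, with 216 at an unadjusted p under 0.05 against 1097 by edgeR. Among the other 14 rows called by edgeR the mock range was the wider one in 7, with medians of 1.70 in mock and 0.94 in arsenite libraries.

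**Figure D2:**
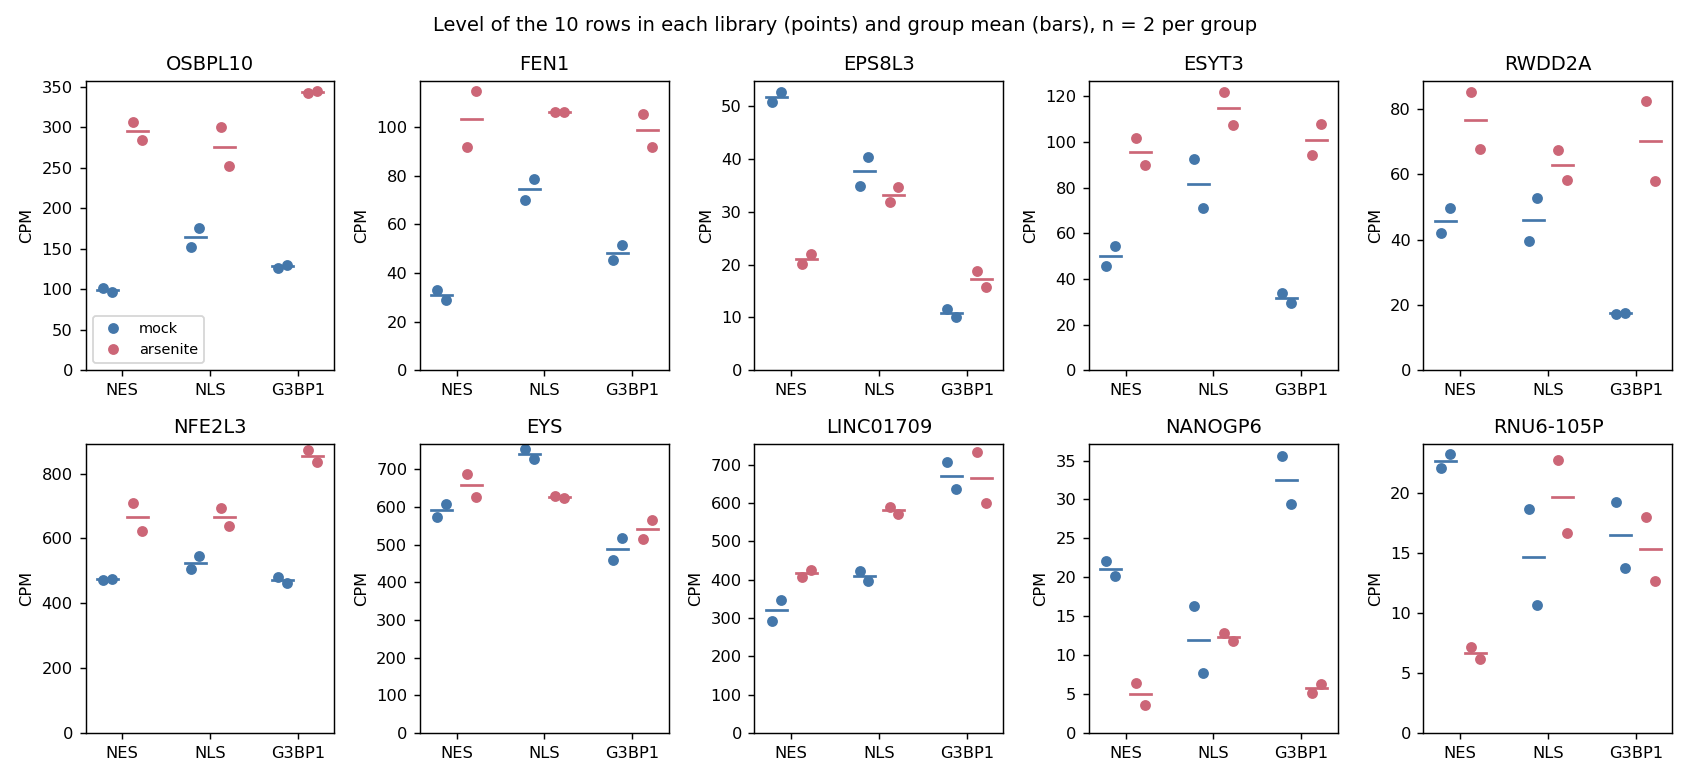
Level in CPM (y axis, starting at 0) of each of the 10 rows in every library (points) and the mean of each group of 2 (bars), by line, mock in blue and arsenite in red. OSBPL10, FEN1, ESYT3 and RWDD2A spread out in mock and draw together in arsenite libraries, and EPS8L3 moves in opposite directions in the NES and G3BP1 lines.

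Of the lipid transfer genes, OSBPL10 encodes an oxysterol-binding protein-related protein. Its row stood at 101 and 96.1 CPM in the 2 NES mock libraries and at 306 and 285 CPM in the 2 NES arsenite libraries. In the NLS line it stood at 152 and 176 CPM in mock and at 300.2 and 252 CPM after arsenite. In the G3BP1 line the values were 126 and 130.4 CPM in mock and 342 and 345 CPM after arsenite. Mock libraries of the 3 lines did not overlap, with NES lowest and NLS highest, and every arsenite library lay above every mock library of any line. The log2 fold change was 1.59 (SE 0.108) in NES, 0.75 (SE 0.0980) in NLS and 1.42 (SE 0.106) in G3BP1. In mock the line means spanned a 1.66-fold range and after arsenite a 1.24-fold range. The order also changed, since NLS was the highest line in mock and the lowest after arsenite. NLS and NES arsenite libraries overlapped.

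ESYT3 encodes an extended synaptotagmin, a tether of contact sites between the endoplasmic reticulum and the plasma membrane. NES libraries held 45.7 and 54.2 CPM in mock and 102 and 89.9 CPM after arsenite. NLS libraries held 92.4 and 71.0 CPM in mock and 122 and 107 CPM after arsenite. G3BP1 libraries held 33.6 and 29.4 CPM in mock and 94.3 and 108 CPM after arsenite. The 3 lines were apart in mock, in the order G3BP1, NES, NLS, while after arsenite the G3BP1 libraries overlapped with both other lines. The log2 fold change, which contains the mock level, was 1.68 (SE 0.192) in G3BP1, 0.95 (SE 0.165) in NES and 0.49 (SE 0.144) in NLS. The line means spanned a 2.59-fold range in mock and a 1.20-fold range after arsenite.

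FEN1, the nuclease that trims flaps during maturation of Okazaki fragments, had the narrowest range of the 10 rows after arsenite. Mock libraries held 33.1 and 28.7 CPM in NES, 69.9 and 78.6 CPM in NLS, and 45.2 and 51.4 CPM in G3BP1. After arsenite the values were 91.6 and 114.5 CPM in NES, 106 and 106 CPM in NLS, and 105 and 91.9 CPM in G3BP1. The mock lines did not overlap, whereas the arsenite means of 103 ± 16.2, 106 ± 0.0884 and 98.7 ± 9.56 CPM (SD, n = 2 each) differed by less than the gap between the NES replicates. The range of line means was 2.40-fold in mock and 1.07-fold after arsenite. The log2 fold change was 1.72 (SE 0.181) in NES, 1.02 (SE 0.175) in G3BP1 and 0.51 (SE 0.149) in NLS.

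RWDD2A, whose protein carries an RWD domain, differed in the G3BP1 mock libraries. These held 17.3 and 17.5 CPM, against 42.0 and 49.6 CPM in NES mock and 39.6 and 52.7 CPM in NLS mock libraries. After arsenite the row stood at 82.3 and 57.8 CPM in G3BP1, 85.2 and 67.8 CPM in NES, and 67.5 and 58.2 CPM in NLS. NES and NLS overlapped in mock, both lay above G3BP1, and the G3BP1 arsenite libraries spanned those of NLS. The log2 fold change of 1.998 (SE 0.247) in G3BP1 stood beside 0.75 (SE 0.188) in NES and 0.44 (SE 0.192) in NLS. A 2.66-fold range of line means in mock became a 1.22-fold range after arsenite.

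NFE2L3, the CNC bZIP transcription factor also called NRF3, showed the reverse arrangement. Mock libraries held 473 and 476 CPM in NES, 506 and 545 CPM in NLS, and 481 and 462 CPM in G3BP1. Arsenite libraries held 709.9 and 624 CPM in NES, 694 and 639 CPM in NLS, and 872 and 835 CPM in G3BP1. In mock the NES libraries lay between the G3BP1 ones, and after arsenite both G3BP1 libraries lay above all others while NES and NLS overlapped. The log2 fold change was 0.86 (SE 0.0746) in G3BP1, 0.50 (SE 0.0738) in NES and 0.34 (SE 0.0724) in NLS. Line means spanned a 1.11-fold range in mock and a 1.28-fold range after arsenite, subject to the scaling named above.

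EPS8L3 had opposite directions in the NES and G3BP1 lines. NES libraries held 50.8 and 52.7 CPM in mock and 20.04 and 22.0 CPM after arsenite. NLS libraries held 34.9 and 40.5 CPM in mock and 31.8 and 34.6 CPM after arsenite. G3BP1 libraries held 11.5 and 10.1 CPM in mock and 18.9 and 15.8 CPM after arsenite. Arsenite libraries thus lay below mock in NES and above mock in G3BP1, with no overlap, and in NLS they lay just below mock. Log2 fold changes were -1.30 (SE 0.237) in NES, -0.18 (SE 0.226) in NLS and 0.67 (SE 0.363) in G3BP1. The G3BP1 counts behind this were low, at 12 and 11 in mock and 22 and 20 after arsenite. Lines differed in both treatments, by a 4.78-fold range in mock and a 1.92-fold range after arsenite, and G3BP1 was the lowest line in each.

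EYS and LINC01709 had smaller responses on top of line levels. The EYS row, named for a gene known for its role in the retina, stood at 574.5 and 609 CPM in NES mock, 753 and 728 CPM in NLS mock and 459 and 518 CPM in G3BP1 mock libraries. After arsenite it stood at 688 and 626 CPM in NES, 629.9 and 624 CPM in NLS, and 516 and 566.5 CPM in G3BP1. The 3 lines were apart in mock, whereas after arsenite NLS and NES overlapped and G3BP1 lay below both. In NLS the arsenite libraries lay under the mock libraries, with a log2 fold change of -0.24 (SE 0.0700), against 0.16 (SE 0.0720) in NES, where they lay above, and 0.15 (SE 0.0782) in G3BP1. In G3BP1 the mock and arsenite libraries overlapped.

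LINC01709 held 292 and 348 CPM in NES mock, 422 and 395 CPM in NLS mock and 706 and 637 CPM in G3BP1 mock libraries. After arsenite the levels were 407 and 426 CPM in NES, 590.5 and 571 CPM in NLS, and 733 and 599 CPM in G3BP1. The G3BP1 line was already the highest in mock, and its mock libraries lay within its arsenite values. Its log2 fold change was -0.01 (SE 0.0748), beside 0.38 (SE 0.0851) in NES and 0.51 (SE 0.0778) in NLS. The line means spanned a 2.10-fold range in mock and a 1.60-fold range after arsenite, with the order NES, NLS, G3BP1 in both.

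The pair of small-RNA-like and pseudogene rows rested on few counts. NANOGP6 had 30 and 26 counts in NES mock, 21 and 10 in NLS mock and 37 and 32 in G3BP1 mock libraries. After arsenite the NES libraries had 9 and 4 counts, the NLS libraries 17 and 17, and the G3BP1 libraries 6 and 8. Arsenite libraries lay below all mock libraries of the same line in NES and G3BP1, while in NLS they lay between the mock replicates, which differed by 1.09 on the log2 CPM scale. Log2 fold changes were -2.02 (SE 0.402) in NES, 0.04 (SE 0.367) in NLS and -2.47 (SE 0.374) in G3BP1. NLS was the lowest line in mock and the highest after arsenite, and the line means spanned a 2.71-fold range in mock and a 2.48-fold range after arsenite.

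RNU6-105P had 30 and 30 counts in NES mock, 24 and 14 in NLS mock and 20 and 15 in G3BP1 mock libraries. After arsenite the NES libraries had 10 and 7 counts, the NLS libraries 30 and 24, and the G3BP1 libraries 21 and 16. The NES arsenite libraries, at 7.16 and 6.17 CPM, were the lowest of all 12, and mock and arsenite values overlapped in the NLS and G3BP1 lines. This gave log2 fold changes of -1.74 (SE 0.372) in NES, 0.42 (SE 0.317) in NLS and -0.11 (SE 0.351) in G3BP1. Line means spanned a 1.55-fold range in mock, where NES was highest, and a 2.95-fold range after arsenite, where NES was lowest.

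The level of a line averaged over mock and arsenite libraries was also compared between lines. It is built from the same mock and arsenite levels that enter the selection, and the rows were also selected for close replicates, so these averages are given with their standard errors and without a test. Line contrasts share libraries and are not independent of each other. Scaling by total counts moved the median of all rows by -0.13 in G3BP1 minus NLS, where the share of calls that were higher over all rows went from 50.9% to 33.1%. In G3BP1 minus NES that share went from 53.8% to 36.7%, and in NLS minus NES from 44.8% to 57.7%.

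For FEN1 the averaged log2 difference of NLS minus NES was 0.66 (SE 0.119), made up of 1.26 in mock and 0.05 after arsenite. For RWDD2A the average of G3BP1 minus NES was -0.77 (SE 0.160), with -1.39 in mock and -0.14 after arsenite. ESYT3 in G3BP1 minus NLS averaged -0.78 (SE 0.122), from -1.37 in mock and -0.18 after arsenite. In these 3 contrasts the difference was larger in mock than in arsenite libraries.

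LINC01709 and EYS differed between lines in both treatments. G3BP1 minus NES was 1.07 in mock and 0.68 after arsenite for LINC01709, an average of 0.87 (SE 0.0564). For EYS it was -0.27 in mock and -0.28 after arsenite, an average of -0.28 (SE 0.0531). EPS8L3 averaged -1.26 (SE 0.213), with -2.25 in mock and -0.27 after arsenite, and NFE2L3 averaged 0.17 (SE 0.0527), with -0.01 in mock and 0.35 after arsenite. OSBPL10 in NLS minus NES changed sign, from 0.73 in mock to -0.10 after arsenite. NANOGP6 and RNU6-105P had averages of 0.39 (SE 0.311) and 0.36 (SE 0.263) in G3BP1 minus NES.

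**Figure D3:**
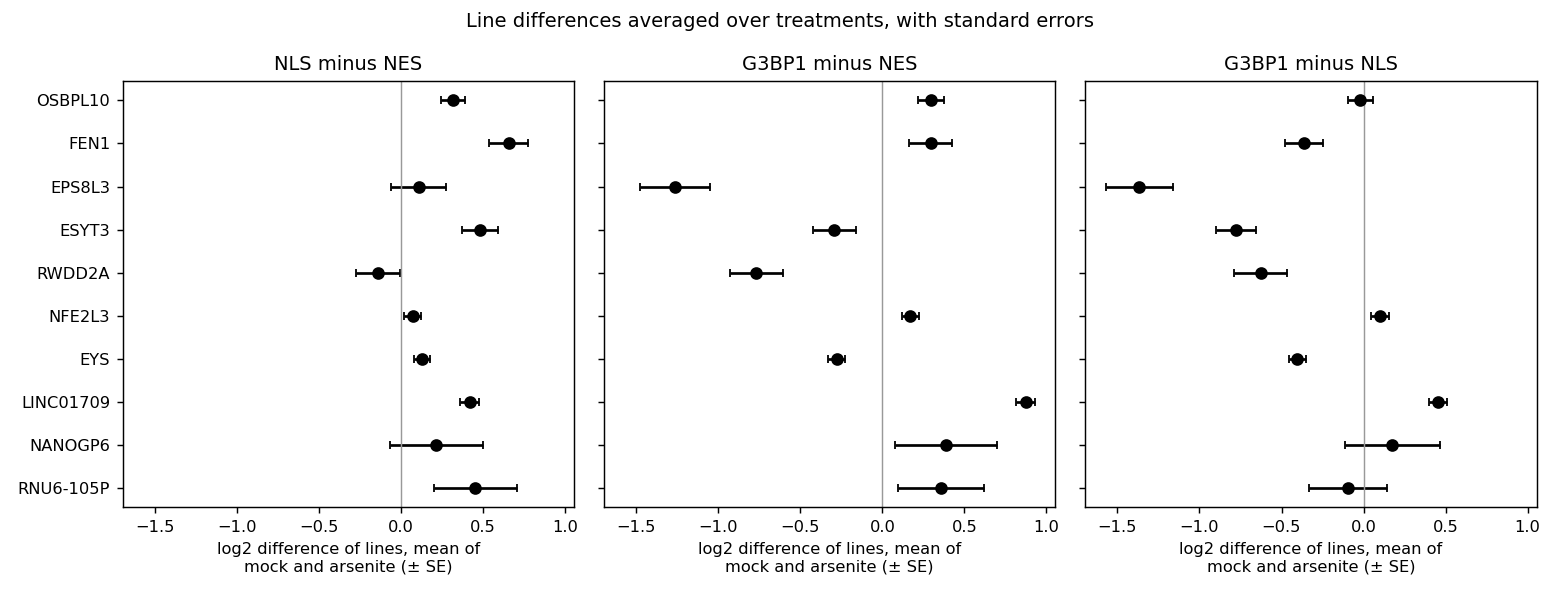
Log2 difference between lines averaged over mock and arsenite (x axis, same scale in the 3 panels), with bars of 1 standard error, for each of the 10 rows, with no test. LINC01709 lies right of 0 in all panels, and EPS8L3 is the leftmost point in both G3BP1 panels.

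Because the strand behind each count is uncertain, the genes on the opposite strand of each member were read from the same fit. In GENCODE 29, 9 of the 10 members overlapped an opposite-strand gene, as did 79.0% of the 12418 tested rows found there. ESYT3 was the member without one, the nearest being CEP70 at 12658 bp. Exons of 3 members lay wholly within the span of such a gene: EPS8L3 (chr1:109750080-109764027) within GSTM5 and ENSG00000241720, NANOGP6 (chr10:99788564-99789410) within ABCC2, and RNU6-105P within an exon of ZNF638. Of 22 partner genes, 21 had a row, 10 of these had at most 4 counts in every library and 7 were tested. By edgeR's joint test 0 of the 7 were called and 2 had an unadjusted p under 0.05, against 1097 of all 13108 tested rows. DESeq2 called 0 rows in all. In the arsenite effect averaged over lines 4 of the 7 were called by edgeR, against 39.1% of all tested rows. In the line differences averaged over treatments 6 of the 7 were called at least once (38.9% of all tested rows). NLS minus NES called 4 (12.3%), 2 higher (5.51%) and 2 lower (6.78%). G3BP1 minus NES called 4 (20.3%), 2 higher (10.9%) and 2 lower (9.38%). G3BP1 minus NLS called 4 (32.2%), 1 higher (16.4%) and 3 lower (15.8%).

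Opposite OSBPL10 (chr3:31657890-32077580), the antisense RNA OSBPL10-AS1 fell after arsenite (log2 fold change -0.73, SE 0.17, adjusted p = 1.4e-04), as did the pseudogene ZNF587P1 (-0.76, SE 0.19, adjusted p = 6.3e-04), while OSBPL10 itself was higher in every arsenite library. TMEM258, a subunit of the oligosaccharyltransferase complex that shares 166 exon bases with FEN1 (chr11:61792637-61797244) on the other strand, fell by 0.50 on the log2 scale (SE 0.07, adjusted p = 2.2e-10). Its means in mock and arsenite were 180.1 ± 0.552 and 112 ± 5.83 CPM in NES, 187 ± 10.8 and 119.97 ± 5.07 CPM in NLS, and 137 ± 4.37 and 121 ± 16.1 CPM in G3BP1 (SD, n = 2 each). FEN1 also shares 49 exon bases with FADS2 on its own strand.

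ENSG00000241720, the antisense row opposite EPS8L3, was lower in G3BP1 than in NES (log2 difference -0.58, SE 0.07, adjusted p = 1.4e-11) and in NLS (-0.78, SE 0.07, adjusted p = 4.9e-20), as the EPS8L3 values were. Averaged over lines it rose after arsenite (0.32, SE 0.06, adjusted p = 7.3e-07). PGM3, a sugar phosphate mutase opposite the start of RWDD2A (chr6:83193379-83198932), was higher in NLS than in NES (0.40, adjusted p = 5.5e-05), where RWDD2A averaged -0.14. It was lower in G3BP1 than in NLS (-0.48, adjusted p 3.9e-10 to 9.3e-04 over alternatives), where RWDD2A averaged -0.63. In G3BP1 minus NES the values were -0.08 for PGM3, not called, and -0.77 for RWDD2A. PGM3 did not pass for the arsenite effect (0.15, adjusted p = 0.0878), although it did in 3 of 18 alternatives (adjusted p 0.0188 to 0.404). HNRNPA2B1, an RNA-binding protein gene whose span holds 80.5% of the exon bases of NFE2L3 (chr7:26152240-26187125), was lower in NLS than in NES (-0.53, adjusted p = 6.6e-06) and higher in G3BP1 than in NLS (0.78, adjusted p = 2.1e-12). Its arsenite effect did not pass (0.15, adjusted p = 0.107). RPSAP19, a pseudogene at the end of LINC01709 (chr1:101639548-101787572), had 67 to 86 counts in the 4 NES libraries and 0 in the other 8, whereas LINC01709 was lowest in NES.

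Of the calls of partners in the line differences, ENSG00000241720 in NLS minus NES, ZNF587P1 and HNRNPA2B1 in G3BP1 minus NES, and TMEM258 in G3BP1 minus NLS were lost in 5 to 9 of 18 alternatives, DESeq2 and the omission of some single libraries among them.

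The remaining partners were near the floor. PHF3, which overlaps EYS (chr6:63719980-65707225), had 1 to 18 counts, GSTM5 0 to 11, CEP70 0 to 6, and ABCC2 and ZNF638 0 to 4 each. Per kb of annotated exon, the mean level over libraries was 35.6 CPM for EYS and 0.41 CPM for PHF3. EPS8L3 had 8.24 CPM per kb and ENSG00000241720 opposite it 299 CPM per kb. The NFE2L3 row, at 144 CPM per kb, was above the HNRNPA2B1 row at 12.1 CPM per kb, while FEN1 and TMEM258 stood at 31.0 and 46.6 CPM per kb. These levels go by row name, and which strand's reads each row holds was not tested.

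**Figure D4:**
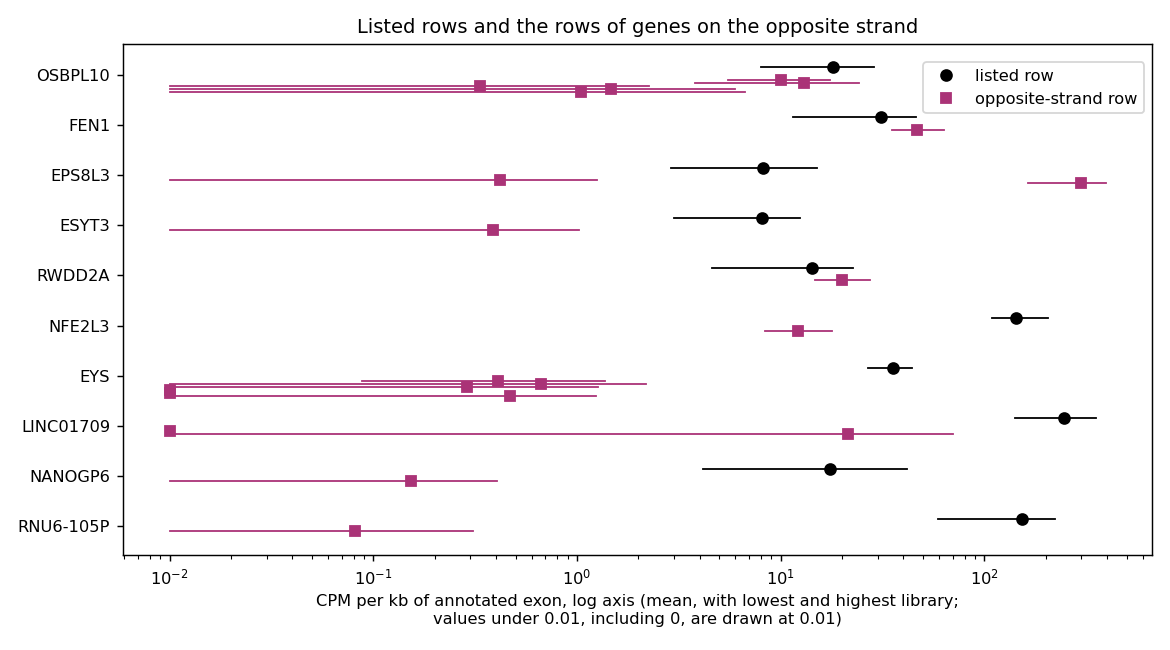
Level per kb of annotated exon (CPM per kb, log axis) of each of the 10 rows (black circles) and of the rows of opposite-strand genes (purple squares), as the mean over 12 libraries with the lowest and highest library; values under 0.01 are drawn at 0.01. EPS8L3 (8.24) lies far below ENSG00000241720 (299), and NFE2L3 (144) above HNRNPA2B1 (12.1). Labels are row names, which do not prove the strand counted.

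Relatives of the members were read from lists by family, in the arsenite effect averaged over lines, where 20.1% of all tested rows rose and 18.9% fell by edgeR. The relatives too are named by row. A row that rose or fell may hold reads of the opposite strand, which was not tested. By the joint test edgeR called 0 of the 20 tested list genes, and DESeq2 called 0. By edgeR 2 of the 20 had an unadjusted p under 0.05, against 1097 of all 13108 tested rows. Of 11 other oxysterol-binding protein genes 3 were tested. OSBPL9 rose (log2 fold change 0.13, adjusted p = 0.0195), a call kept in 10 of 18 alternatives (edgeR or DESeq2 adjusted p 0.011 to 0.153) and lost with total counts, no filter, the 1 CPM filter, DESeq2, and without NES arsenite replicate 2, NLS mock replicate 1, G3BP1 mock replicate 1 or G3BP1 arsenite replicate 2. OSBP2 fell (-0.56, adjusted p = 2.5e-06) and OSBP did not pass (0.34, adjusted p = 0.37). Of 24 lagging-strand synthesis genes 8 were tested. The clamp loader subunit RFC5 rose (0.27, adjusted p = 0.00161), and the polymerase subunit POLD4 fell (-0.61, adjusted p = 5.7e-05). POLA2, at 0 to 14 counts, fell (-0.79, adjusted p = 0.0467), a call kept in 8 of 18 alternatives (adjusted p 0.00172 to 0.236). It was lost with no filter, with DESeq2, and on leaving out replicate 1 or 2 of NES mock or NLS mock, or replicate 2 of NES arsenite, NLS arsenite, G3BP1 mock or G3BP1 arsenite. The POLA2 value moved to -2.40 without NES arsenite replicate 1 and to -0.51 without NES arsenite replicate 2. The medians of these lists were 0.13 and -0.01, against 0.00 over all tested rows.

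Of 9 CNC bZIP factors and partners 4 were tested and 1 rose. NFE2L1, the NRF1 gene, had 9.79 ± 1.44 CPM in the 6 mock and 21.5 ± 5.10 CPM (SD) in the 6 arsenite libraries, a log2 fold change of 1.14 (adjusted p = 1.0e-06). NFE2L2, the NRF2 gene, stood at 2743 ± 270 and 2642 ± 316 CPM and did not pass (-0.06, adjusted p = 0.188), except with scaling by total counts (adjusted p = 0.00336, range over alternatives 0.00336 to 0.491). Neither EPS8L1 (0.17) nor EPS8L2 (-0.32) passed, nor did ESYT1 (-0.32, adjusted p = 0.076), the 1 tested row of 6 listed contact-site tethers, except with total counts or without NLS mock replicate 1 (adjusted p 0.0384 to 0.276 over alternatives). RWDD2B fell (-0.72, adjusted p = 0.00691), a call lost with DESeq2 and without NES mock replicate 1 or NLS mock replicate 1 (adjusted p up to 0.0942), and RWDD1 did not pass (0.41, adjusted p = 0.382).

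Among 6513 rows averaging 20 CPM or more, those most like each member over the 12 libraries were found by Pearson's r of log2 CPM. For OSBPL10 these were METTL3 (0.98) and SLC35A3 (0.97), for FEN1 GMPR2 (0.96) and GNB4 (0.95), and for ESYT3 LHFPL4 (0.96) and KCNRG (0.95). The closest to RWDD2A were DNAH14 (0.95) and OSMR (0.95), to NFE2L3 NAALAD2 (0.97) and NIPSNAP3B (0.96), and to EPS8L3 PPP2R3A (0.93) and MDN1 (0.93). EYS was nearest to ENSG00000224066 (0.93) and TP53INP2 (0.92), and LINC01709 to SNX22 (0.94) and RN7SL1 (0.92). The low rows NANOGP6 and RNU6-105P reached 0.93 (FSD2, IGF2BP3) and 0.83 (ENSG00000253667). All points share the 12 libraries and their treatment. Between members, r ran from -0.84 for RWDD2A with NANOGP6 to 0.94 for OSBPL10 with NFE2L3. OSBPL10 with FEN1 had 0.93 and ESYT3 with RWDD2A 0.87.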

How the data were processed

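RNA was measured in 12 libraries, placed in 6 groups of 2 by their titles and labels. Libraries were made from ribosome-depleted RNA with a stranded kit, per the labels' protocols. The values deposited by the authors are unnormalized read counts for each gene, in 1 table. The submitters' processing notes name Trim Galore, Subread, featureCounts, edgeR and GRCh38.p13; the annotation and the strand setting are not given in the sources used here. Of 16 columns, 4 matched no sample and were not used.

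Counts as deposited were fitted with edgeR 4.0.16 in R 4.3.3 (TMM, filterByExpr with minimum count 10 and minimum total 15, 1 mean per group, 6 residual degrees of freedom, quasi-likelihood F test, Benjamini-Hochberg over 13108 rows, threshold 0.05). The script was tested on simulated data. The main contrasts were the joint difference of arsenite effects, the arsenite effect averaged over lines, and the line differences averaged over treatments; members carry no test in any of them, although a test of their line differences had been planned. Ranges and fold ranges of single rows used log2 of group mean CPM. Medians of ranges, shares over all rows and differences between the mock and arsenite range added 0.5 CPM to each mean. Likeness used log2 CPM with a prior count of 2. Totals of 1090308 to 1461067 counts set a floor of 3 counts. Named genes were the 10 rows, their opposite-strand partners, the 2 most similar rows for each and, from the lists, rows called in the joint test; as there were none, the list genes named were picked after their values were seen. The members and lists were chosen with earlier results of these data known. Partners were found in GENCODE 29 on GRCh38, and promoters came from RefSeq.

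Every replicate pair differed beyond sampling noise (chi-square per degree of freedom 1.11 to 1.39). Alternatives were DESeq2 size factors, total counts, no filter, a filter on a mean level of 1 CPM, DESeq2's own test (1.42.0), a replicate block and leaving out each library.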

Additional observations from a re-analysis of the deposited data

Results flagged for a closer look

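EPS8L3 stood out because every library of one line moved opposite to every library of another: the arsenite log2 fold change was -1.30 in NES and -0.18 in NLS, but 0.67 in G3BP1. For EYS the log2 fold change was 0.16 in NES and -0.24 in NLS, again with all libraries of each line on 1 side of its mock libraries. Neither difference was tested, because both rows had been picked for differing among lines.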

How the results depend on the processing

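With the DESeq2 test, 0 rows were called jointly (24 by edgeR), 3042 for the averaged arsenite effect (5120), 631 for NLS against NES (1611), 1308 for G3BP1 against NES (2662) and 2382 for G3BP1 against NLS (4220); the cause was not tested. Under total counts the mock range of NFE2L3 minus its arsenite range went from -0.20 to 0.0227; the cause was not tested. Deviations from the group means of libraries with the same line and number had r between -0.05 and 0.01 over 6521 rows. Across lines the highest r was 0.29, between the same-numbered arsenite libraries of NES and NLS, so some pairs deviate together but not all, and the numbers were not taken as pairs. With the replicate number as a block, 32 rows were called jointly, 5161 for arsenite, and 1699, 2727 and 4264 for the line contrasts, and 8 members had a wider mock range. Leaving out each library in turn gave 20 to 31 joint calls and 7 to 8 members with a wider mock range. Over all alternatives, 1442 of 1512 tested values for single partner, list and neighbour rows kept their side of the threshold. Of the others 61 lost and 9 gained a call, and none changed direction with a call in either fit. Values without a call could change sign and still count as kept, as for RPA1 (-0.05, range -0.16 to 0.09). NANOGP6 and RNU6-105P had standard errors of 0.32 to 0.40 per line. Both rows had few counts and replicate gaps of up to 1.09 and 0.80 on the log2 CPM scale, and the 2 were not separated.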

Other observations

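Genes annotated within 30 kb of the members, overlapping ones included, were looked up, and those named were chosen, after the values were seen. The genes too are named by row, and the strand of their reads was not tested. Of 39 with a row, 16 were tested by edgeR, of which 0 were called for different arsenite effects among lines. An unadjusted p under 0.05 was found for 4 of the 16, against 1097 of all 13108 tested rows (DESeq2 called 0 rows in all). GSTM3, a glutathione transferase gene beside EPS8L3, was lower in G3BP1 than in NES (log2 difference -1.10, SE 0.16, adjusted p = 6.6e-09) and than in NLS (-1.15, SE 0.16, adjusted p = 2.6e-10), as for EPS8L3, and it fell after arsenite on average over lines (-1.11, SE 0.12, adjusted p = 2.5e-14). ENSG00000280399, 379 bp from ESYT3, was higher in NLS than in NES (0.61, SE 0.15, adjusted p = 0.00173) and lower in G3BP1 than in NLS (-0.62, SE 0.16, adjusted p = 6.7e-04), the directions seen for ESYT3. In G3BP1 minus NES it stood at -0.01 and was not called, against an average of -0.29 for ESYT3. ENSG00000280399 rose after arsenite (0.53, SE 0.13, adjusted p = 3.9e-04). Other neighbours went against their member in some contrasts. DOP1A, near RWDD2A, was higher in G3BP1 than in NLS (0.60, SE 0.05, adjusted p = 1.1e-21). So was FADS1, near FEN1 (0.43, SE 0.04, adjusted p = 3.1e-16), whereas RWDD2A and FEN1 had lower averages in G3BP1 than in NLS. In G3BP1 minus NES, DOP1A (0.42) went against RWDD2A (-0.77), but FADS1 (0.24) went with FEN1 (0.29). In NLS minus NES, DOP1A (-0.19) went with RWDD2A (-0.14), and FADS1 (-0.20) against FEN1 (0.66). The call of ENSG00000280399 in NLS against NES was lost with DESeq2 (adjusted p = 0.0606, range over alternatives 7.1e-04 to 0.0606). Near LINC01709, OLFM3 had 67 to 98 counts in the 4 NES libraries and 0 to 1 in the other 8.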
